A study of Mus musculus with 14 samples.

Results

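The collagen genes of the mouse were followed from embryonic stem cells (ESC), a culture of early embryo cells with the capacity to give all its tissues, to embryoid bodies (EB), the clumps in which these cells differentiate. Members were all genes whose symbol has the form Col, a number, a and a number, which gave 42 of the 18194 genes represented on the arrays. They were divided by protein class into 11 fibrillar collagens, 8 basement membrane collagens and 23 others, the last made up of 9 FACIT collagens (fibril-associated chains with interrupted helices), 5 beaded filament, 3 short chain, 4 transmembrane, 1 anchoring fibril and 1 remaining chain.

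Expression was measured on Affymetrix arrays in 4 groups, each array being a different cell line that the series text calls a biological replicate. The wild type (WT) was represented by lines B21, J1 and R1, with 3 arrays at the ESC stage and 3 at the EB stage. Cells labelled TKO were measured as ESC in lines 7-4-1, Dutch and Ta1-12 (3 arrays) and as EB in the same lines and in 2-55-2 and 14-14-4 (5 arrays). The labels do not spell out TKO, but the series title asks whether cells leave the cell cycle and differentiate without the Rb family. TKO was therefore read as loss of its 3 genes, Rb1, Rbl1 and Rbl2. The alleles, the time of EB culture, the medium and any feeder cells are not given in the sources used here. No treatment is named for any group.

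Collagens are secreted or membrane proteins built from a triple helix. Fibrillar collagens assemble into the banded fibrils of connective tissue and are made mainly by fibroblasts, bone cells and cartilage cells, whereas type IV collagen forms the sheet-like network of basement membranes and is among the first matrix proteins made by the early embryo. The chains are hydroxylated and folded in the endoplasmic reticulum, trimmed by proteinases, crosslinked outside the cell and bound by integrins and other receptors. In EB, parietal endoderm, mesenchyme and epithelia are all possible sources of collagen RNA. In these bulk samples fewer cells of a type and less RNA per cell cannot be told apart.

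The deposited table gives a linear intensity for each probe set, a group of probes against the same transcript. Array medians lay between 83.2 and 107.9. The 42 genes had 82 probe sets, 27 genes had several, and each gene was represented by its probe set of highest mean log2 intensity across the 14 arrays. Intensities of different genes depend on their probes, so each gene is compared only with itself. Intensities below 32 were raised to 32 before log2 was taken, and changes are differences of log2 intensity with their standard error (SE) from a limma fit over all genes. A change was called at a Benjamini-Hochberg adjusted p under 0.05. Of the collagens, 39 passed the filter on low values (10 fibrillar, 8 basement membrane, 21 other), and 11 of these passed it only with the help of EB arrays, lying above the filter on fewer than 3 ESC arrays. Col10a1 (6.0 to 44.7 over the 14 arrays), Col24a1 (13.6 to 123.7) and Col6a5 (4.9 to 31.0) did not pass and were not tested.

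The genes read as lost did not all have low intensity in the TKO arrays. Rbl1 intensity was 15.9 to 38.3 in the TKO arrays of lines 7-4-1, 2-55-2 and 14-14-4 against 355.6 to 1089.6 in WT, but 250.3 and 377.1 in Dutch and 492.5 and 1095.9 in Ta1-12. Rb1 was at 115.9 to 607.1 in TKO ESC (138.0 to 790.6 in WT ESC) and 300.5 to 912.8 in TKO EB (407.1 to 1018.4 in WT EB). Rbl2 was at 658.5 to 843.2 in TKO ESC (411.1 to 661.3 in WT ESC) and 296.8 to 1098.7 in TKO EB (722.8 to 1726.9 in WT EB). For both genes the genotypes overlapped at each stage. Where the probes lie relative to the deleted parts is not given, so these values do not check the genotype of any line. TKO EB also differed in Pou5f1, a transcription factor of undifferentiated cells, with intensities of 7410.3 (Dutch), 6132.8 (14-14-4), 1542.2 (2-55-2), 146.8 (7-4-1) and 17.1 (Ta1-12). Its range was 32.8 to 55.2 over the WT EB arrays and 9879.8 to 12950.1 over the ESC arrays. Values without Dutch and 14-14-4, or without Ta1-12, are given beside the counts and some of the genes. Leaving out the Dutch and 14-14-4 EB arrays together, or line Ta1-12 at both stages, was chosen after the values were seen.

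Promoter sequence is shown for 4 members whose values recur below and whose window lies outside every annotated gene: a pair of fibrillar chains that rose together (Col3a1 and Col1a2), a short chain member (Col8a1) and the epithelial Col17a1, which differed between lines. The windows are the 250 bases before the transcription start in RefSeq (GRCm38.p6), at chr1:45311288-45311537 (plus strand) for Col3a1, chr6:4505368-4505617 (plus) for Col1a2, chr16:57754738-57754987 (minus) for Col8a1 and chr19:47692043-47692292 (minus) for Col17a1. Capitals mark the CCAAT box, the TATA box sequence TATAAA and the GC box sequence GGGCGG, searched on both strands with no overlap between them.

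Col3a1: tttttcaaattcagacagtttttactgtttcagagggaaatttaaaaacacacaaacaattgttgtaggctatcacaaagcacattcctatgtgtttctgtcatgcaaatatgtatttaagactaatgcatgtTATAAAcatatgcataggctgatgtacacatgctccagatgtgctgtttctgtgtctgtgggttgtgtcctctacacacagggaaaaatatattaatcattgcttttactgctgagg

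Col1a2: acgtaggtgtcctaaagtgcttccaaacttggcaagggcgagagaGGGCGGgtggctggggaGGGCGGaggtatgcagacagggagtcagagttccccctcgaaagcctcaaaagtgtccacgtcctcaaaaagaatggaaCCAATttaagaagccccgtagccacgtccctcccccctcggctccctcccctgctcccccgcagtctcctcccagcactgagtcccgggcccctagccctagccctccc

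Col8a1: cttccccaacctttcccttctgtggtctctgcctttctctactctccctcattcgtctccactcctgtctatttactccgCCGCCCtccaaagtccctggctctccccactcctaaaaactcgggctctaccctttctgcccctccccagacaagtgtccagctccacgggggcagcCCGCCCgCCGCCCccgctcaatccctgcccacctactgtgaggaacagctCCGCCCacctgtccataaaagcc

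Col17a1: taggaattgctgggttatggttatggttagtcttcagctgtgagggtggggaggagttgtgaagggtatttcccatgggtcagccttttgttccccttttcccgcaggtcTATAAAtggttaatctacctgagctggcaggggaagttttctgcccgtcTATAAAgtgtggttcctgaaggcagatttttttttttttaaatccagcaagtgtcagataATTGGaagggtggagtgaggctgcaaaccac

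RefSeq held such windows for 33 of the 42 genes, 36 windows in all. TATAAA was found in 13.9% of them against 12.4% of all 32851 windows, CCAAT in 36.1% against 33.8%, and GGGCGG in 58.3% against 32.7%. The window of Col3a1 held a TATAAA and no GGGCGG, that of Col1a2 a CCAAT and GGGCGG copies, that of Col8a1 GGGCGG copies alone, and that of Col17a1 TATAAA copies and a CCAAT on the other strand. A match describes letters and not a bound site. In this annotation Col4a1 and Col4a2 lie head to head on chromosome 8, with start sites 21 bases apart on opposite strands. Col4a5 and Col4a6 are likewise divergent on chromosome X, with start sites 1343 bases apart.

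In wild-type cells most collagens were higher in EB than in ESC. Of the 39 tested, 24 rose and 0 fell in WT EB versus WT ESC. Of these, Col3a1, Col9a1, Col14a1, Col15a1, Col16a1, Col17a1 and Col25a1 had passed the filter only with the help of EB arrays. A fall could hardly have been called for such members. Of all 14365 genes tested, 43.6% were called, 26.2% as higher and 17.4% as lower. The median change was 2.94 over the collagens and 0.13 over all genes. By class, 7 of 10 fibrillar members rose (median 3.23), 4 of 8 basement membrane members (median 3.08) and 13 of 21 others (median 2.92). The 3 EB arrays lay above the 3 ESC arrays without overlap for 28 members, which 35.1% of all genes did. Changes lay below 0 for 8 members (44.1% of all genes), and 26 had an unadjusted p under 0.05 (52.5% of all genes). In TKO cells 23 of the 39 rose and 0 fell in TKO EB versus TKO ESC, where 35.7% of all genes were called, 20.8% as higher and 14.9% as lower. The same limit of the filter held for Col3a1, Col9a1, Col14a1, Col15a1, Col16a1, Col25a1, Col23a1 and Col4a6 among these calls. An unadjusted p under 0.05 was reached by 24 members (45.7% of all genes). The medians were 2.29 over the collagens, 3.11 for fibrillar, 2.42 for basement membrane and 1.75 for other members, against 0.08 over all genes. Without Dutch and 14-14-4, 24 rose in TKO cells and the medians were 2.85 over the collagens, 3.48 for fibrillar, 2.96 for basement membrane and 2.24 for other members. In that fit 3653 of all 14365 genes rose, and the median over all genes was 0.09. With a floor of 64, 18 rose in TKO cells, as did 2666 of all 14365 genes. Both comparisons called 21 members, which is 87.5% of the WT calls and 91.3% of the TKO calls. Called in WT alone were Col17a1, Col20a1 and Col26a1, and in TKO alone Col23a1 and Col4a6. For none of these 5 did the 2 changes differ past the threshold in the test of the difference, the interaction.

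**Figure D1:**
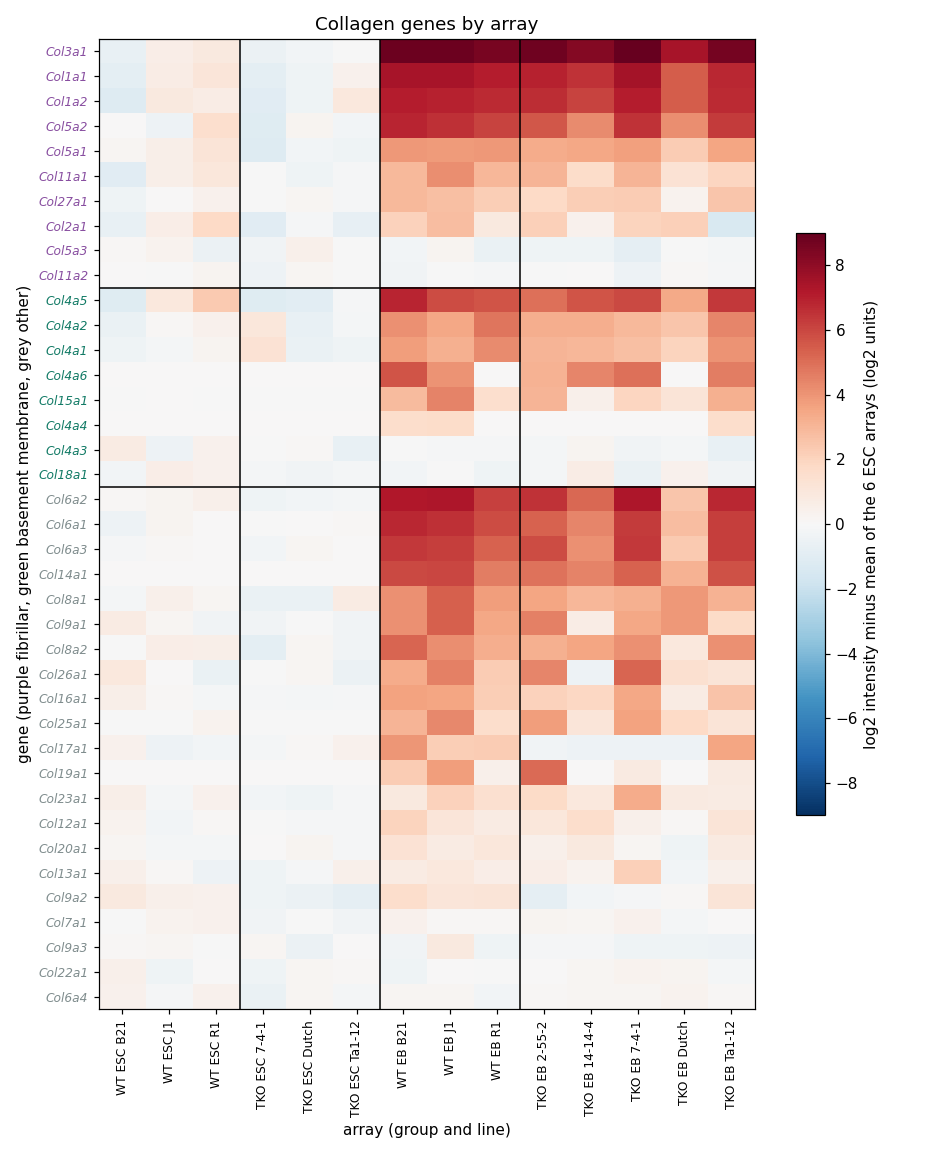
Log2 intensity of the 39 tested collagens minus the gene's mean over the 6 ESC arrays, per array (columns, by group and line) and gene (rows, by class, ordered by the change in WT cells). Red fills the EB columns for Col3a1 to Col27a1, for Col4a5, Col4a2 and Col4a1 and for Col6a1, Col6a2 and Col6a3. It is paler in TKO EB Dutch, where Col27a1 (75.1) lies within its ESC range (45.7 to 76.5). Col17a1 is red in the WT EB arrays and in TKO EB Ta1-12.

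The chains of types I and III, the main fibrillar collagens of loose connective tissue, showed the largest changes of the family. Col3a1 intensity in lines B21, J1 and R1 was 20.7, 77.3 and 92.3 as WT ESC and 22643.1, 22719.9 and 19017.1 as WT EB. It was 34.5, 42.3 and 48.8 in TKO ESC (7-4-1, Dutch, Ta1-12) and 21243.4, 15486.9, 24932.2, 8622.2 and 19848.4 in TKO EB (2-55-2, 14-14-4, 7-4-1, Dutch, Ta1-12). Every EB array lay far above every ESC array, and Dutch was the lowest EB array. The log2 change was 8.45 ± 0.41 (SE) in WT and 8.68 ± 0.36 in TKO cells (limma adjusted p = 2.28e-07 and 4.03e-08).

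Col1a1, the more abundant chain of type I collagen, was at 50.2, 146.0 and 190.6 in WT ESC and at 15828.3, 15795.0 and 12459.6 in WT EB. In TKO cells it was at 49.0, 68.0 and 120.0 in ESC and at 11239.3, 8190.5, 16406.2, 3877.1 and 10090.7 in EB. The changes were 7.03 ± 0.54 and 6.93 ± 0.48 (limma adjusted p = 1.42e-05 and 4.16e-06). Its partner Col1a2 was at 75.6, 310.5 and 270.1 in WT ESC, 21954.1, 20445.4 and 17141.8 in WT EB, 81.3, 128.9 and 314.2 in TKO ESC and 16761.6, 11268.1, 21769.4, 7297.0 and 17780.1 in TKO EB. Both chains had the same order of lines in TKO EB at the top and bottom, with 7-4-1 highest and Dutch lowest. Col1a2 changed by 6.74 ± 0.57 and 6.55 ± 0.51 (limma adjusted p = 2.31e-05 and 8.98e-06), close to its partner on the log2 scale.

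Type V collagen is built into type I fibrils and limits their diameter. Col5a2 was at 106.7, 76.1 and 297.1 in WT ESC, 12104.4, 10101.2 and 7005.5 in WT EB, 50.0, 122.5 and 87.3 in TKO ESC and 5073.3, 1950.5, 9380.2, 1881.7 and 8079.9 in TKO EB. Its changes were 6.15 ± 0.66 and 5.72 ± 0.59 (limma adjusted p = 9.63e-05 and 5.50e-05), and the lowest TKO EB arrays were Dutch and 14-14-4. Its partner Col5a1 was already clearly measured in ESC, at 551.3, 700.3 and 1088.8 in WT and 218.3, 426.1 and 378.2 in TKO, and reached 7446.9, 6973.0 and 7346.4 in WT EB and 4939.8, 5532.0, 6338.4, 2412.6 and 5723.4 in TKO EB. Its rise was 3.28 ± 0.36 in WT and 3.85 ± 0.32 in TKO cells (limma adjusted p = 1.03e-04 and 1.29e-05). Among the cartilage-type fibrillar chains, Col11a1 rose by 3.19 ± 0.58 and 2.37 ± 0.52 and Col27a1 by 2.63 ± 0.46 and 1.83 ± 0.41, the latter with an adjusted p of 0.0568 in TKO cells when the line was a block. Col2a1, the main collagen of cartilage, ran from 187.2 to 684.8 in WT EB and in TKO EB from 39.1 (Ta1-12) to 459.9, and its changes of 1.29 ± 0.90 and 1.66 ± 0.80 were not called. Without TKO EB Ta1-12 it was called in TKO cells, at 2.27 (limma adjusted p = 0.0163). Col5a3 and Col11a2 changed by -0.40 to 0.00 and were not called in either genotype.

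**Figure D2:**
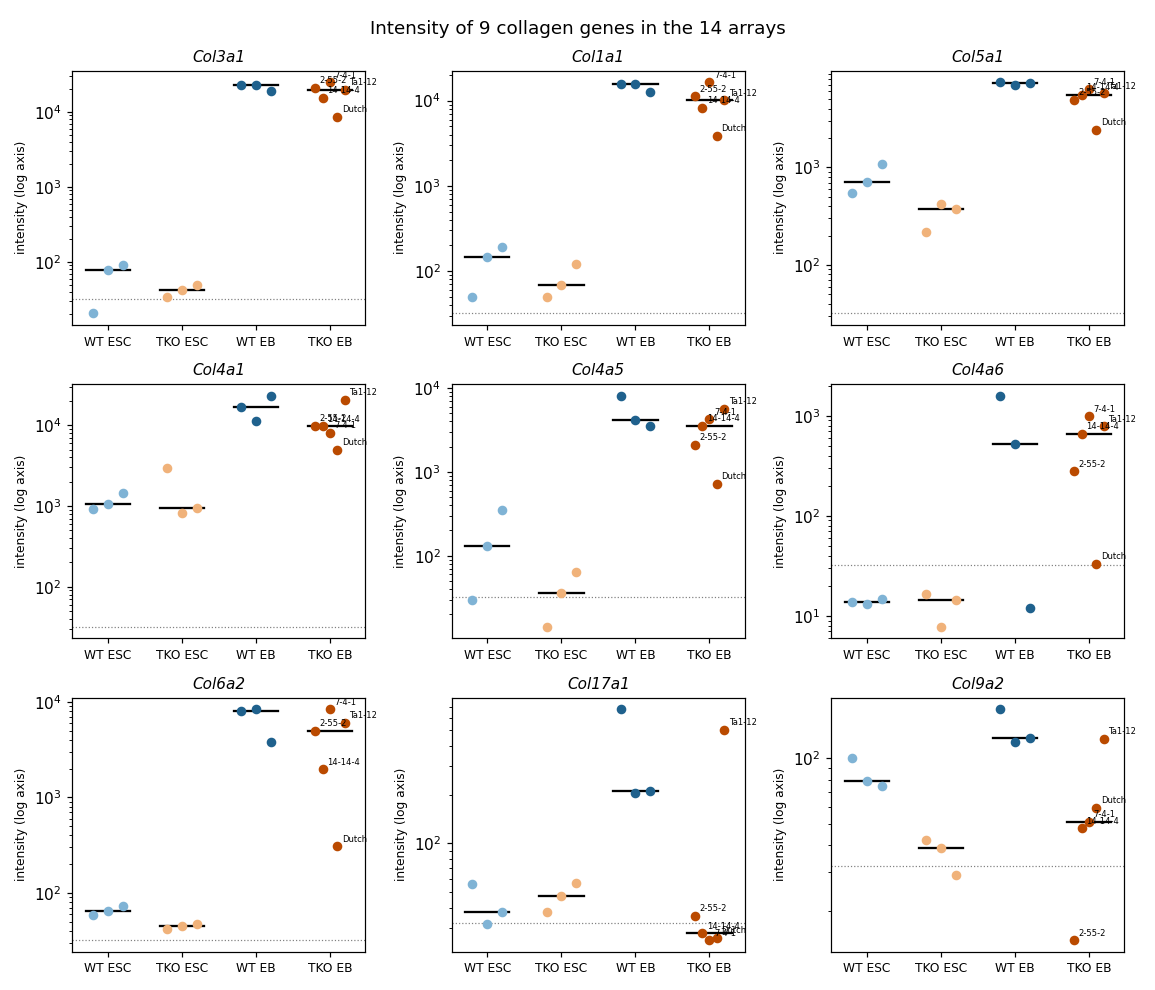
Intensity on a log axis of 9 collagens in the 14 arrays, grouped as WT ESC, TKO ESC, WT EB and TKO EB, with a point per array, a bar at the group median, line names beside the TKO EB points and a dotted line at the floor of 32. Col3a1, Col1a1 and Col6a2 separate EB from ESC in every array, Col4a6 lies under the floor in WT EB R1, and Col17a1 is high in TKO EB Ta1-12 alone among the TKO EB arrays.

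In the basement membrane class the type IV chains divided by pair. Col4a1 and Col4a2 chains together make the network found in nearly every basement membrane, and both were clearly measured in ESC. Col4a1 was at 926.2, 1056.6 and 1449.8 in WT ESC and 16574.3, 11144.5 and 23111.5 in WT EB. In TKO cells it was at 2970.3 (7-4-1), 807.9 and 947.8 in ESC and at 9898.6, 9661.4, 8065.4, 4926.5 and 20480.4 in EB. Col4a2 followed the same order, at 481.0, 774.0 and 933.8 in WT ESC, 12532.7, 8028.0 and 20869.7 in WT EB, 1445.6, 466.9 and 628.0 in TKO ESC and 7012.5, 6906.3, 5390.6, 4040.2 and 15498.1 in TKO EB. For both genes R1 was the highest WT EB array, Ta1-12 the highest TKO EB array and 7-4-1 the highest ESC array. Col4a1 rose by 3.85 ± 0.52 in WT and 2.85 ± 0.46 in TKO cells (limma adjusted p = 2.96e-04 and 7.67e-04), and Col4a2 by 4.19 ± 0.52 and 3.21 ± 0.46 (2.00e-04 and 3.54e-04).

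A list of 9 parietal endoderm genes (among them the laminin chains Lama1 and Lamb1 and the receptor Pth1r) was high as a sum in the same arrays. Its summed intensity was 107494 in WT EB R1 and 76435 in TKO EB Ta1-12, against 42540 to 55139 in the other WT EB and 23033 to 40403 in the other TKO EB. In ESC it was 19399 in TKO 7-4-1 and 11073 to 15095 elsewhere. Not every member had this order. In TKO EB Plat was highest in 7-4-1 (3664.9, and 3103.0 in Ta1-12). Among the ESC arrays Nid1 was lowest in TKO 7-4-1 (1063.6). Lamb1 (3072.9), Plat (72.9) and Thbd (29.9) were lower there than in WT ESC R1 (3189.7, 129.9 and 41.7). Lama1, Lamc1, Sparc, Pth1r and Gata6 were highest in TKO 7-4-1 among the ESC arrays. All 9 genes were above the floor in every EB array. The part of these cells in the Col4a1 and Col4a2 values was not tested.

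**Figure D3:**
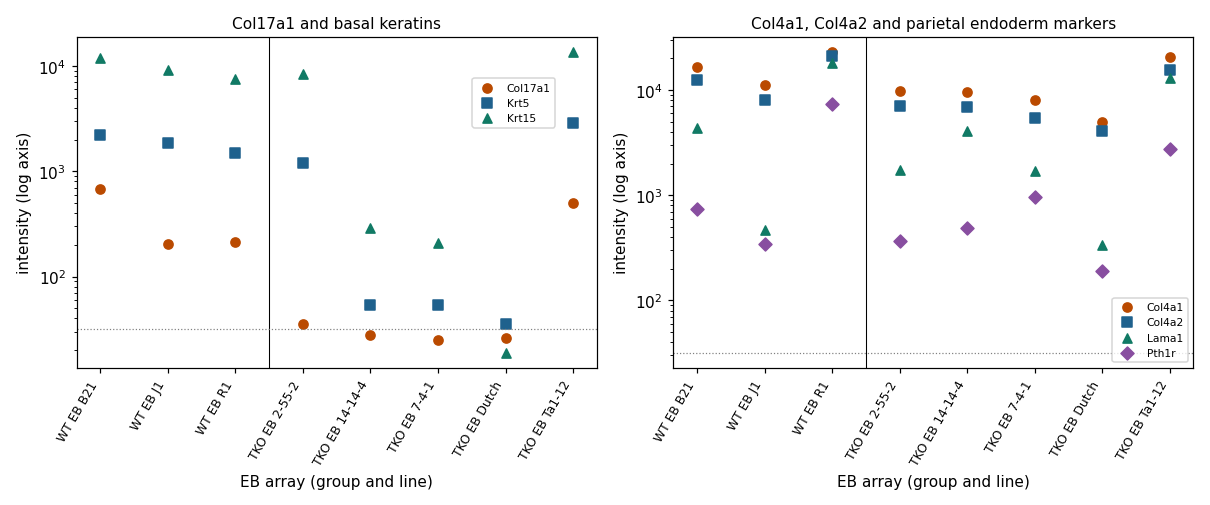
Intensity on a log axis in the 8 EB arrays (WT left of the line, TKO right of it), with Col17a1 beside the basal keratins Krt5 and Krt15 (left) and Col4a1 and Col4a2 beside the parietal endoderm markers Lama1 and Pth1r (right) and a dotted line at the floor of 32. TKO EB 2-55-2 has Krt15 at 8325.1 with Col17a1 at 35.8, and WT EB R1 and TKO EB Ta1-12 are the highest arrays for Col4a1, Col4a2, Lama1 and Pth1r.

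The second type IV pair, Col4a5 and Col4a6, occurs together in basement membranes of skin, smooth muscle and other selected tissues. Col4a5 was at 29.3, 130.1 and 354.8 in WT ESC and 8091.6, 4126.5 and 3485.6 in WT EB, and at 14.2, 35.5 and 63.9 in TKO ESC and 2115.3, 3571.2, 4259.3, 726.7 and 5691.4 in TKO EB. It rose by 5.42 ± 0.83 in WT and 5.99 ± 0.74 in TKO cells (limma adjusted p = 5.74e-04 and 1.55e-04). Col4a6 was at 7.8 to 16.6 in all 6 ESC arrays and at 1585.1, 526.9 and 12.1 in WT EB, so R1 EB had Col4a5 without Col4a6. In TKO EB it was at 279.9, 664.6, 985.8, 33.1 and 788.4, lowest again in Dutch. Its change was 3.22 ± 1.32 in WT (limma adjusted p = 0.0638) and 3.42 ± 1.18 in TKO cells (0.0383). Without WT EB R1 the WT change was called, at 4.84 (0.00706), and without TKO EB Dutch likewise at 3.22 (0.0242). Without Dutch and 14-14-4 the TKO change was 4.23 (0.0088). The TKO call was lost with the line as a block (0.113) and in 8 of the fits that left out a single array, of either genotype. A second probe set of Col4a6 changed by 2.64 in WT and 2.74 in TKO cells.

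Of the other basement membrane members, Col15a1, which links basement membranes to the fibrils beneath, rose. It was at 23.3, 33.7 and 25.0 in WT ESC, 236.3, 705.2 and 94.2 in WT EB, 21.9, 12.8 and 20.2 in TKO ESC and 271.9, 45.0, 125.7, 71.9 and 292.3 in TKO EB. The changes were 2.94 ± 0.73 and 1.98 ± 0.65 (limma adjusted p = 0.00687 and 0.0317), and the TKO call was lost without EB 2-55-2, 7-4-1 or Ta1-12 or without any 1 of the TKO ESC arrays, at adjusted p from 0.0502 to 0.0842. Col4a3 and Col4a4, whose chains form the network of the kidney filter, were not called in either genotype. Col4a4 was under the floor in all 6 ESC arrays and at 97.1, 100.2 and 31.2 in WT EB. Without WT EB R1 it was called at 1.62 and without TKO EB Ta1-12 at 1.08 (limma adjusted p = 0.0103 and 0.0241). Col18a1, the source of the fragment endostatin, was high throughout, at 3434.2, 6164.4 and 5519.6 in WT ESC, 3558.5, 4025.4 and 3097.9 in WT EB, 3586.7, 3307.4 and 3654.4 in TKO ESC and 3700.1, 6614.8, 2727.2, 5446.1 and 3290.2 in TKO EB. Its changes were -0.47 ± 0.30 in WT and 0.23 ± 0.27 in TKO cells (limma adjusted p = 0.219 and 0.520), and the groups overlapped.

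Type VI collagen forms beaded filaments around cells of muscle and connective tissue, and its 3 main chains moved in parallel. Col6a1 was at 48.4, 78.3 and 67.5 in WT ESC, 7374.4, 6334.3 and 3820.5 in WT EB, 63.9, 67.4 and 72.1 in TKO ESC and 2590.4, 1374.9, 5242.7, 441.9 and 5008.5 in TKO EB. Col6a2 was at 59.4 to 72.8 in WT ESC, 8071.0, 8336.2 and 3805.3 in WT EB, 42.1, 44.9 and 47.5 in TKO ESC and 4987.4, 1971.5, 8317.0, 306.4 and 6027.9 in TKO EB. Col6a3 was at 63.0, 72.4 and 69.5 in WT ESC, 5506.9, 4991.6 and 2696.7 in WT EB, 57.8, 77.6 and 68.1 in TKO ESC and 4026.5, 1189.9, 5629.9, 355.3 and 5035.6 in TKO EB. For all 3 chains R1 was the lowest WT EB array and Dutch the lowest TKO EB array, with 14-14-4 next. Col6a1 rose by 6.47 ± 0.72 in WT and 4.96 ± 0.64 in TKO cells (limma adjusted p = 1.10e-04 and 2.02e-04), Col6a2 by 6.61 ± 0.91 and 5.93 ± 0.82 (3.33e-04 and 2.85e-04) and Col6a3 by 5.94 ± 0.82 and 5.01 ± 0.73 (3.21e-04 and 3.98e-04). Without Dutch and 14-14-4 the TKO changes were 5.91, 7.14 and 6.17 for Col6a1, Col6a2 and Col6a3. Col6a4 did not follow them. It was at 115.5, 81.2 and 116.6 in WT ESC, 100.1, 101.6 and 74.9 in WT EB, 58.4, 102.0 and 77.4 in TKO ESC and 94.5, 100.7, 100.4, 110.8 and 96.9 in TKO EB, with changes of -0.17 ± 0.24 and 0.38 ± 0.21 that were not called.

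FACIT collagens sit on the surface of fibrils. Of their 9 members, all tested, 5 rose in WT and 4 in TKO cells. Col14a1, found on type I fibrils, was under the floor in all 6 ESC arrays, at 21.7 to 29.4, on the probe set that stood for it. It was at 1981.0, 2038.4 and 782.7 in WT EB and 947.3, 714.3, 1278.7, 283.9 and 1682.1 in TKO EB. On that probe set it was hence at least 45.9-fold higher in WT and at least 26.2-fold higher in TKO cells (limma adjusted p = 5.65e-05 and 4.89e-05). A second probe set, at 54.7 to 90.8 in ESC, changed by 2.29 in WT and 1.47 in TKO cells on the log2 scale. Another changed by 0.55 and 0.43. Col16a1 was at 52.4, 39.4 and 25.8 in WT ESC, 458.1, 439.1 and 173.5 in WT EB, 34.9, 26.5 and 33.8 in TKO ESC and 155.4, 137.2, 419.9, 62.5 and 215.9 in TKO EB, rising by 3.01 ± 0.56 and 2.29 ± 0.50 (limma adjusted p = 0.00148 and 0.00400). The type IX chains, partners in cartilage, did not move as a unit. Col9a1 rose by 4.13 ± 0.83 and 3.07 ± 0.74, whereas Col9a2 (0.69 ± 0.38 and 0.59 ± 0.34) and Col9a3 (-0.06 ± 0.32 and -0.19 ± 0.29) were not called. Col9a2 was called in WT cells when TKO EB Ta1-12 was left out (limma adjusted p = 0.0461), at the same change, since the fit shares its estimate of the spread. Col12a1 rose by 1.21 ± 0.38 and 0.95 ± 0.34 on the probe set that stood for it (limma adjusted p = 0.0202 and 0.0426), and a second probe set changed by 5.19 and 4.08. The WT call was lost without B21 EB (0.0949) or J1 ESC (0.0723). The TKO call was lost in 16 of 28 alternatives, with the line as a block among them (0.166). Col20a1 was at 97.5, 77.2 and 74.8 in WT ESC, 212.0, 144.1 and 174.4 in WT EB, 87.1, 100.3 and 81.7 in TKO ESC and 120.4, 157.9, 97.9, 65.9 and 152.9 in TKO EB. It was called in WT at 1.08 ± 0.31 (limma adjusted p = 0.0134, and 0.0567 without B21 EB) and not in TKO cells at 0.34 ± 0.27.

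Col19a1, another FACIT member, was at 155.2, 435.1 and 44.2 in WT EB and at 1113.3, 23.2, 56.7, 31.6 and 55.2 in TKO EB, with all 6 ESC arrays under the floor at 5.4 to 21.9. Its changes of 2.17 ± 1.13 in WT and 1.35 ± 1.01 in TKO cells were not called. In WT cells it was called with the line as a block (limma adjusted p = 0.0286) and without TKO EB 2-55-2 (0.0148). Col22a1, found at tissue junctions, changed by -0.15 ± 0.25 and 0.16 ± 0.23 and was not called.

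The short chain collagens form hexagonal networks, for example in the cornea and vessel wall. Col8a1 was at 44.2, 68.4 and 55.7 in WT ESC, 839.3, 2021.3 and 658.4 in WT EB, 25.5, 29.8 and 82.4 in TKO ESC and 573.4, 392.2, 459.7, 732.2 and 429.9 in TKO EB, where Dutch was the highest array and not the lowest. It rose by 4.23 ± 0.45 and 3.52 ± 0.40 (limma adjusted p = 8.51e-05 and 9.17e-05). Col8a2 rose by 3.87 ± 0.72 and 3.55 ± 0.65, with TKO EB Dutch at 126.8 and the other TKO EB arrays at 601.8 to 1131.2. Col26a1, the remaining chain and not a short chain collagen, was at 41.7 to 123.2 in ESC, 636.9, 1474.4 and 307.4 in WT EB and 1344.9, 47.2, 2446.8, 170.2 and 144.8 in TKO EB. It was called in WT at 3.25 ± 1.19 (limma adjusted p = 0.0417), a call lost in 12 of 28 alternatives, 8 of them single arrays of WT or TKO ESC or WT EB, with adjusted p up to 0.131. In TKO cells it was not called at 2.51 ± 1.06 (0.0832), but was without 14-14-4 (3.21, 0.0199) and without 14-14-4 and Dutch together (3.76, 0.00679).

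Col17a1 is a transmembrane chain of hemidesmosomes, which anchor basal epithelial cells. It was at 56.0, 31.9 and 37.5 in WT ESC and at 675.0, 205.8 and 211.8 in WT EB. In TKO cells it was at 37.9, 47.1 and 56.8 in ESC and at 35.8, 27.8, 25.2 and 26.2 in EB of 2-55-2, 14-14-4, 7-4-1 and Dutch, but at 503.6 in Ta1-12. It rose in WT cells by 2.92 ± 0.89 (limma adjusted p = 0.0191, and 0.0825 without B21 EB or 0.0582 without J1 ESC) and changed by 0.28 ± 0.80 in TKO cells (0.804). The summed intensity of 4 basal epithelial markers (Krt5, Krt14, Krt15 and Trp63) was 11957 to 17139 in WT EB, 20676 in Ta1-12, 10414 in 2-55-2 and 525 to 1093 in the other TKO EB, against 220 to 355 in ESC. The array of 2-55-2, with Col17a1 near the floor, had Krt15 at 8325.1 and Krt5 at 1210.1 (1486.9 to 2207.1 in WT EB), but Krt14 at 763.1, near 14-14-4 (681.1) and Dutch (665.4) and below the 2764.9 to 2970.0 of WT EB, and Trp63 at 116.1, below the 129.3 to 148.6 of WT EB. The part of these cells in the Col17a1 values was not tested. Of the other transmembrane chains, Col25a1 rose by 2.94 ± 0.77 in WT and 2.36 ± 0.69 in TKO cells (limma adjusted p = 0.00896 and 0.0182). Its TKO call was lost with the line as a block (0.0542) and without any 1 of the TKO ESC arrays (0.0550 to 0.0561). With a floor of 64 it was called in neither genotype (2.06 and 1.36, adjusted p = 0.0517 and 0.158), and its second probe set changed by -0.25 and 0.26. Col23a1 was called in TKO cells at 1.75 ± 0.51 (0.0178), with 7-4-1 highest at 408.5 against 67.5 to 134.2, a call lost with the line as a block (0.0641) and without TKO ESC 7-4-1 (0.0543) or Dutch (0.0602). The call was also lost with the mean of all probe sets (1.20, 0.0757) and with a floor of 64 (0.86, 0.209). In WT cells Col23a1 changed by 1.22 ± 0.57 (0.0962), and was called without TKO EB 7-4-1 (0.0122). Col13a1 changed by 0.75 ± 0.48 and 0.68 ± 0.43 and was not called. Col7a1, the anchoring fibril collagen of skin, was at 184.3, 227.3 and 239.7 in WT ESC, 240.7, 202.4 and 196.8 in WT EB, 150.7, 180.3 and 146.4 in TKO ESC and 218.4, 205.5, 246.8, 162.1 and 185.4 in TKO EB, and was not called.

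**Figure D4:**
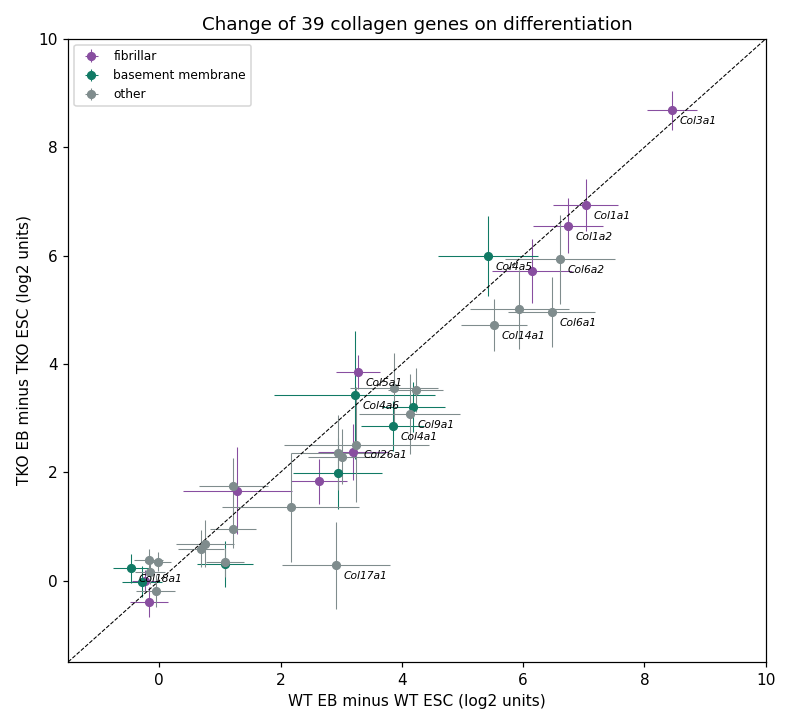
Change from ESC to EB of the 39 tested collagens in WT cells (x axis, log2 units) and TKO cells (y axis, log2 units), with SE bars from the fit, colours for the class and a dashed line of equal change. Most points lie along the line from 0 to Col3a1 at 8.45 and 8.68, and Col17a1 lies farthest below it at 2.92 and 0.28.

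The genes that make, trim and bind collagen were counted from lists. Beside all the lists below stand the shares over all genes. In WT cells 26.2% rose and 17.4% fell, and in TKO cells 20.8% rose and 14.9% fell. Of 19 tested genes of collagen modification and folding, 18 rose in WT and 14 in TKO cells, and 0 fell. P3h4, part of the hydroxylation complex, rose by 3.24 ± 0.40 and 1.83 ± 0.35, Ppib, a prolyl isomerase, by 0.72 ± 0.10 and 0.49 ± 0.09, and Serpinh1, the collagen chaperone HSP47, by 3.29 ± 0.48 and 3.30 ± 0.43. Serpinh1 was at 671.2, 2576.6 and 2622.8 in WT ESC, 15078.3, 14489.8 and 19463.0 in WT EB, 1846.0, 837.1 and 1158.1 in TKO ESC and 13326.1, 12166.2, 15111.1, 6531.1 and 15391.0 in TKO EB. It was thus lowest in Dutch among the EB arrays, as were P3h4 (880.8) and Ppib (9348.2).

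Of 4 tested genes of procollagen cleavage, 3 rose and 1 fell in WT cells, and 2 rose and 1 fell in TKO cells. Bmp1, the proteinase that removes the carboxyl propeptide, rose by 2.33 ± 0.58 and 2.83 ± 0.52. Its enhancer Pcolce rose by 2.49 ± 0.37 in WT (limma adjusted p = 4.71e-04) and was not called in TKO cells at 0.75 ± 0.33 (0.0908), while the difference between these changes was -1.73 ± 0.49 with an adjusted p of 0.975. Pcolce was at 2256.4, 1250.0 and 1254.6 in WT ESC and 2485.0, 3694.0 and 3331.1 in TKO ESC, without overlap. Its relative Pcolce2 went the other way, from 998.1, 875.2 and 1117.0 in WT ESC to 65.4, 144.8 and 44.9 in WT EB, and from 706.2, 1220.3 and 901.4 in TKO ESC to 174.0, 196.4, 100.6, 330.2 and 32.2 in TKO EB. It fell by 3.72 in WT and by 2.83 in TKO cells on the log2 scale (limma adjusted p = 0.00135 and 0.00369).

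Of 5 tested crosslinking genes, 4 rose in each genotype. The lysyl oxidases Loxl1 and Lox, which crosslink fibrillar collagen, rose by 4.50 ± 0.51 and 5.31 ± 0.77 in WT and by 3.80 ± 0.46 and 3.25 ± 0.69 in TKO cells. Lox was at 8321.1, 4964.5 and 2891.4 in WT EB and 1318.4, 727.1, 1868.9, 224.7 and 3941.7 in TKO EB, against 98.9 to 133.1 in ESC. Pxdn, which crosslinks type IV collagen, rose by 2.96 ± 0.59 and 3.19 ± 0.53. Of 8 tested receptors, 5 rose in each genotype. Itgb1, the beta subunit of collagen-binding integrins, rose by 2.01 ± 0.21 and 1.75 ± 0.19, the uptake receptor Mrc2 by 3.88 ± 0.63 and 4.11 ± 0.56, and the receptor kinase Ddr1 by 1.59 ± 0.43 and 1.56 ± 0.38 (0.0615 in TKO cells with the line as a block, by limma adjusted p). Of 4 tested collagenases and gelatinases, 3 rose in each genotype. Mmp2 rose by 2.88 ± 0.25 and 2.72 ± 0.22, Mmp14 by 3.35 ± 0.62 and 2.81 ± 0.56, and Mmp9 by 1.91 ± 0.64 and 2.02 ± 0.57, the last with an adjusted p of 0.101 in either genotype with the line as a block. No member of these lists passed the threshold between the genotypes at either stage over all arrays. Without TKO EB Ta1-12, 8 of them were called lower in TKO EB than in WT EB, where 6.56% of all genes were, among them Lox (-2.63, limma adjusted p = 0.0172), Loxl1 (-1.72, 0.0288), the lysyl hydroxylase Plod1 (-1.98, 0.00933) and Ppib (-0.29, 0.0396). Without line Ta1-12 at both stages 4 were called lower (Colgalt1, Lox, Loxl1 and Plod1), as were 4.96% of all genes. With arrays weighted by quality, Bmp1 was called lower in TKO ESC (-1.66, 0.0189) and Pcolce higher (1.30, 0.00562).

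Between genotypes in ESC, 0 of 39 collagens were called in TKO ESC versus WT ESC, as were 0.0% of all genes by limma. At an unadjusted p under 0.05 there were 2 (2.74% of all genes), Col5a1 and Col9a2. Changes lay below 0 for 29 of the 39 (54.9% of all genes), with a median of -0.27 against -0.02 over all genes. The arrays did not overlap for 4 members (Col5a1, Col9a2, Col7a1 and Col6a2), all lower in TKO, where 6.84% of all genes were lower and 4.64% higher without overlap. Col5a1 differed by -1.19 ± 0.36 from the values given above, and all 3 of its probe sets were lower (-1.19, -1.55 and -1.47). Col9a2 was at 101.0, 78.7 and 75.1 in WT ESC and 42.1, 38.8 and 29.1 in TKO ESC, a difference of -1.17 ± 0.38. Col7a1 differed by -0.45 ± 0.21 and Col4a5 by -1.45 ± 0.83, the latter with overlap between 29.3 in WT B21 and 63.9 in TKO Ta1-12. For each of these 4 the limma adjusted p was 1.00. When arrays were weighted by their quality in limma, 6 collagens were called lower (Col5a1, Col9a2, Col7a1, Col4a5, Col18a1 and Col3a1), as were 3.79% of all genes.

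Within WT ESC the order of the lines was read as well. Of the 39 members, 11 (28.2%) were lowest in B21 and highest in R1, against 23.9% of all genes. Col1a1, Col5a1, Col4a1, Col4a2 and Col4a5 were among them. The opposite order was held by 6 (15.4%), against 20.6% of all genes, with Col16a1, Col13a1 and Col26a1 among them. Both shares lay near those of all genes. The summed intensity of 4 smooth muscle markers was also lowest in B21 and highest in R1 (693 in B21, 3983 in J1, 9873 in R1). It was 350 to 2071 in TKO ESC. Acta2, Tagln and Cnn1 each had this order, and Myh11, at 28.5, 34.9 and 18.3, did not. The sum of 9 fibroblast and mesenchyme markers lacked this order, at 925, 861 and 854 in WT and 478 to 642 in TKO ESC. Its members differed in B21, J1 and R1. Twist2 was at 24.5, 66.1 and 133.9, and Twist1 and Prrx1 were above the floor in R1 alone (74.9 and 42.6). Thy1 (430.0, 318.4 and 255.4), Pdgfrb and Pdgfra had the opposite order. Postn was at 15.0, 45.8 and 44.6. Dcn was at 30.1 to 45.0 and Lum under the floor in all 6 ESC arrays. The part of such cells in the ESC values was not tested.

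**Figure D5:**
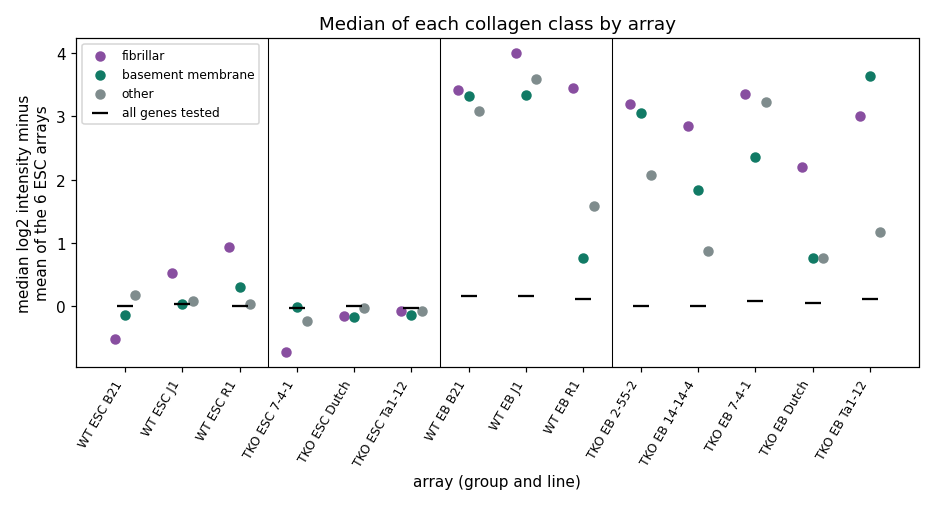
Median over the members of each class of log2 intensity minus the gene's mean over the 6 ESC arrays, for each array (x axis, group and line), with black bars for all genes tested. The fibrillar medians lie at 3.42 to 4.00 over the WT EB arrays and 2.20 to 3.35 over the TKO EB arrays, and the basement membrane medians are lowest at 0.77 in WT EB R1 and in TKO EB Dutch.

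Between genotypes in EB, 0 of 39 collagens were called in TKO EB versus WT EB, as were 0.0% of all genes by limma. At an unadjusted p under 0.05 there were 6 members (14.2% of all genes), Col9a2, Col17a1, Col8a1, Col20a1, Col11a1 and Col6a1, all lower in TKO. Changes lay below 0 for 33 of 39 (60.6% of all genes), with a median of -0.77 against -0.10. Col5a1 alone had no overlap, with WT EB at 6973.0 to 7446.9 and TKO EB at 2412.6 to 6338.4, which 3.05% of all genes showed in that direction. The difference of -0.61 ± 0.32 was not called (limma adjusted p = 0.387).

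Among the TKO EB arrays, values under the WT EB range were most frequent in 2 lines. Of the 39 members, 28 lay below all 3 WT EB arrays in Dutch and 24 in 14-14-4 (41.3% and 41.2% of all genes), against 17 in 2-55-2, 12 in 7-4-1 and 13 in Ta1-12 (41.6%, 35.1% and 21.7% of all genes). Dutch was the lowest TKO EB array for 18 of the 23 members called in TKO cells, and 7-4-1 the highest for 12. The same positions were not counted over all called genes, so these counts do not set collagens apart. The sum of 9 fibroblast and mesenchyme markers was 8154 in Dutch and 22352 in 14-14-4, with 35819 to 53957 in the remaining TKO EB arrays and 44768 to 52160 for WT. Dcn, Lum and Postn made up most of these sums, and other members differed. Twist1, Twist2 and Prrx1 were at 237.5, 414.8 and 348.3 in 14-14-4. They were lower in Ta1-12 (192.2, 301.4 and 164.3), whose sum was 44435. Pdgfra, Pdgfrb and Thy1 went with the sum between these lines. The sum of 8 pluripotency markers was 72653 and 58275 in these lines, 4774 to 17001 in the remaining TKO EB arrays and 3563 to 4450 for WT. Without Dutch and 14-14-4 the median collagen difference was -0.31, against -0.08 over all genes, with 29 of 39 below 0. In that fit 0 collagens were called, as were 0 of all genes. The part of these cell types in the collagen values was not tested.

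Col9a2 was at 168.3, 118.7 and 124.7 in WT EB and at 14.6, 47.8, 51.3 and 59.3 in TKO EB of 2-55-2, 14-14-4, 7-4-1 and Dutch, but at 123.5 in Ta1-12. Its difference of -1.26 ± 0.34 was not called (limma adjusted p = 0.303), nor was that of Col17a1 at -2.44 ± 0.80 (0.303), Col8a1 at -1.04 ± 0.40 (0.317) or Col20a1 at -0.62 ± 0.27 (0.342). Ta1-12 was the TKO EB array closest to WT EB for both Col9a2 and Col17a1. Without that array Col17a1 (-3.23, limma adjusted p = 0.00125) and Col9a2 (-1.55, 0.0047) were called lower in TKO EB, 2 of 39 members, where 6.56% of all genes were called lower. Without line Ta1-12 at both stages the adjusted p was 0.00287 and 0.00843, and 4.96% of all genes were called lower.

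The change on differentiation did not differ between the genotypes for any collagen past the threshold. The interaction, the TKO change minus the WT change, called 0 of 39 members and 0.0% of all genes by limma. At an unadjusted p under 0.05 there was 1 member, Col17a1, and 3.63% of all genes. Changes lay below 0 for 27 of 39 members (54.9% of all genes), with a median of -0.32 against -0.05. Without Dutch and 14-14-4, a choice made after the values were seen, the collagen median was 0.10, with 18 below 0. The median over all genes was then -0.04. Col17a1 had the smallest p, at -2.64 ± 1.20, followed by Col20a1 (-0.74 ± 0.41), Col18a1 (0.70 ± 0.40) and Col6a4 (0.55 ± 0.32), each with a limma adjusted p of 0.975. Without TKO EB Ta1-12 Col17a1 was called at -3.43 (0.0366), where 0.146% of all genes were called lower. Line 7-4-1, measured at both stages, had Col1a1 higher in EB by 8.39, Col3a1 by 9.50 and Col6a2 by 7.63 on the log2 scale. The changes in Dutch were 5.83, 7.67 and 2.77 for the same genes, and those in Ta1-12 6.39, 8.67 and 6.99, while the WT lines ran from 6.03 to 8.30, from 7.69 to 9.47 and from 5.71 to 7.09. For Col6a2 and Col6a1 (2.71 in Dutch, 6.12 and 6.36 in the other paired TKO lines, 5.82 to 7.25 in WT) Dutch therefore stood below every other line measured at both stages.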

How the data were processed

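Biotin-labelled material from Trizol-extracted total RNA was measured on Affymetrix arrays, as the labels' protocols state. The deposited values are linear intensity values of 45101 probe sets already brought from probe to probe set level by the authors. Background correction and scaling are methods not given in the sources used here. These parts of the scale are therefore unknown. Of the probe sets, 34958 had 1 gene symbol, 932 several and 9211 none in the platform annotation, and those with several were left out.

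The array medians spanned 0.374 in log2 units, so no centring was applied. Intensities under 32 were raised to 32 and log2 taken, which understates changes of genes near that floor. The probe set with the highest mean log2 value stood for its gene, and a gene was tested where it lay above the 40th percentile of the array on at least 3 arrays (14365 genes). limma 3.58.1 (R 4.3.3, eBayes with trend) was fitted to the 14 arrays together, each group having its own mean, with Benjamini-Hochberg adjustment over all genes. Each adjusted p comes from this tool and is two-sided. The spread is shared over groups, the number of arrays limits the precision, and p-values measure the spread between lines. The procedure was tested on simulated data.

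Lines measured at both stages pair ESC with EB, since they are the same cell line. Deviations from the group mean of such pairs correlated at -0.046 (B21), -0.078 (J1), -0.037 (R1), 0.066 (7-4-1), 0.196 (Dutch) and 0.090 (Ta1-12). The line was fitted as a fixed and as a random block, and its value is given where it changed a call.

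Collagen classes, pathway lists and marker lists were chosen with earlier results of these data known. Values of every array are given for the 4 fibrillar, 4 basement membrane and 6 other members with the smallest adjusted p on differentiation of the WT lines, for the 4 with the smallest in each comparison between genotypes and in the interaction, and from each pathway list the 3 genes with the smallest adjusted p are named. Single array values of Col19a1, Col26a1 and Col4a6 were added after their values were seen. Marker lists were those of pluripotent cells, fibroblasts and mesenchyme, parietal endoderm, chondrocytes, endothelium, basal epithelium and smooth muscle. Alternatives were other floors, normalizations, filters and probe set rules, array weights, the line block and leaving out single arrays. Promoter windows came from RefSeq (GRCm38.p6).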

Additional observations from a re-analysis of the deposited data

Results flagged for a closer look

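Within the 5 TKO EB arrays, 38 collagens and the medians of the 3 classes were tested for an array that stands apart from the others, by its gap to the nearest array divided by the range of the group on the log2 scale. At a critical value of 0.710 about 5% of groups are picked out by chance, and 4 genes were. The share of all genes picked out by this rule was not counted, so the number does not set collagens apart. Col17a1 had a ratio of 0.959, with Ta1-12 at 503.6 above the other 4 arrays. Col19a1 had a ratio of 0.839, with 2-55-2 at 1113.3. These ratios were 0.883 and 0.769 without the floor of 32. Col4a4 could not be tested, since 4 of its arrays lay under the floor, and Ta1-12 was at 93.8. Col5a1 had a ratio of 0.742, with Dutch lowest at 2412.6. Col8a2 had a ratio of 0.712, with Dutch lowest at 126.8. Groups of 3 arrays were not tested in this way.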

How the results depend on the processing

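Of the 24 collagens called in WT EB versus WT ESC, 19 kept the call in all 28 alternatives, and of the 23 in TKO EB versus TKO ESC, 17 did. No result changed sign among called values. Leaving out single arrays moved the number of members called higher between 20 and 26 in WT and between 18 and 23 in TKO cells, the number called lower between 0 and 2 in TKO EB versus WT EB and between 0 and 1 in the interaction, and the median difference of basement membrane members in ESC between -0.37 and 0.00. Leaving out line Ta1-12 gave 2 members lower in TKO EB, and leaving out the Dutch and 14-14-4 EB arrays gave 0. Both were chosen after seeing the data. Array weights called 1 member lower in WT EB versus WT ESC (Col18a1, with 24.2% of all genes lower) and 6 lower in TKO ESC versus WT ESC (Col18a1, Col3a1, Col4a5, Col5a1, Col7a1 and Col9a2, with 3.79% of all genes lower). They also gained 5 higher calls in WT cells (Col19a1, Col23a1, Col4a4, Col4a6 and Col9a2) and 3 in TKO cells (Col19a1, Col26a1 and Col2a1) and lost none of the calls over unweighted arrays. Over all 14365 genes the higher calls went from 3767 to 4960 in WT and from 2987 to 3845 in TKO cells. A floor of 64 left 18 members called in TKO cells (without Col12a1, Col15a1, Col23a1, Col25a1 and Col4a6) and took Col25a1 and Col26a1 from the WT calls. A filter at the 60th percentile, which tests fewer genes, moved the fibrillar medians to 4.71 in WT and 4.78 in TKO cells and the median of other members to 2.79 in TKO cells. No filter moved the fibrillar median to 2.37 in TKO cells, and the mean of all probe sets moved the median of other members to 1.60 in WT cells. In TKO ESC versus WT ESC the basement membrane median was -0.32 with a floor of 16 and -0.38 with log2 of the value plus 16, and the median of other members was -0.02 with a floor of 64. The cause of the remaining shifts was not tested. With the line as a fixed replicate block 25 members were called higher in WT and 18 in TKO cells, and as a random replicate block 24 and 23. Over all 14365 genes these counts were 3286 and 2064 with the fixed block and 3853 and 3043 with the random block. The block changed no other call than those given with the genes. Levels under the floor of 32 have no order.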

Other observations

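Markers of other tissues that contain collagen were also read in each array, as values only. The sum of 6 chondrocyte markers ranged from 898 to 1404 in ESC and 831 to 2647 in WT EB. In TKO EB it was 760 to 3340, highest in 7-4-1. For 6 endothelial markers the sum was 649 to 2017 in ESC and 1878 to 4138 in WT EB. In TKO EB it was 958 to 5461, highest in Ta1-12. Members within each list went opposite ways, so these sums do not measure cartilage or endothelium. Sox9 was at 9.5 to 17.9 in ESC and 508.7 to 2245.9 in WT EB. Matn3 was at 532.4 to 1022.5 in ESC and at most 99.3 in WT EB. In TKO EB Dutch Matn3 was at 1043.7, most of the chondrocyte sum of 1537. Pecam1, at 225.1 to 1485.1 in ESC, was at 1723.1 in Dutch, most of its endothelial sum of 2299. Cdh5 was at 88.4 in that array. Smooth muscle markers summed to 18339 to 27473 over the WT EB arrays and 14311 to 25548 over TKO EB. Dutch, the lowest TKO EB array for most collagens called in TKO cells, was at 18494. Acta2 and Tagln made up most of these sums, which therefore do not show the level of Myh11, another member. Myh11 ranged from 132.8 to 218.5 over the WT EB arrays. Its TKO EB values were 26.5 (Dutch), 26.6 (2-55-2), 36.4 (14-14-4), 84.1 (7-4-1) and 175.9 (Ta1-12), with Dutch and 2-55-2 under the floor. Acta2, the smooth muscle actin, was at 12641.2 in Dutch and 9536.6 to 18416.9 in the other TKO EB arrays. Postn, a matrix protein of mesenchyme, was at 3272.5 in Dutch and 5794.1 to 11145.8 in the other TKO EB arrays, and Dcn, a proteoglycan of collagen fibrils, at 1209.5 and 8173.8 to 16493.9.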
